A study of Homo sapiens with 84 samples.

Results

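The clustered protocadherins are cell-surface adhesion proteins encoded in 3 neighbouring clusters (alpha, beta and gamma) on human chromosome 5. Chromatin accessibility at their genes was measured here in triple-negative breast cancer cell lines given an EZH2 inhibitor, an AKT inhibitor or both. Members were all genes in the peak annotation whose symbol begins with PCDHA, PCDHB or PCDHG followed by a digit or by A, B or C, which gave 49 of 24455 genes with a peak within 10 kb of their start. The alpha cluster held 12 of them, the beta cluster 17 and the gamma cluster 20. Of the 125 peaks assigned to members, 66 lay within 10 kb of the start of their gene and were summed per gene, 14 in the alpha, 28 in the beta and 24 in the gamma cluster. A peak lay over the start of 48 members, and PCDHB4 had none there. PCDHB17P is annotated as a pseudogene. PCDHA5, PCDHA9, PCDHA11, PCDHGA5 and PCDHGA8 had no entry of their own, and the peaks over the starts of PCDHA11 and PCDHGA8 were assigned to PCDHA1 and PCDHGA1.

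Omni-ATAC libraries from 50000 cells each were analysed for 9 lines. All cells received medium with 2% FBS on day 0 and were collected 24 hours later. The combination group received 5 uM tazemetostat, which inhibits the histone methyltransferase EZH2, from day -5 and 5 uM ipatasertib, which inhibits the kinase AKT, from day 0. The tazemetostat group received the first agent alone, the ipatasertib group the second alone, and the control group the solvent DMSO. All 4 groups were made in SUM-159PT, SUM-149PT, MDA-MB-231 and MDA-MB-468, and the combination and DMSO groups alone in HCC1937, HCC1395, HCC1143, BT-549 and BT-20. Each group had 3 libraries, and the labels describe the schedule for MDA-MB-468 and do not say whether the 3 came from separate cultures. The 78 libraries held between 12292571 and 21459284 counts in peaks. Replicates of 1 group differed by no more than sampling noise in 76 of 78 pairs, so the 3 libraries of a group were summed and the line was the unit of replication. The other 2 pairs both held the third DMSO library of HCC1395. Values per gene are CPM, the counts of a gene scaled to the library's total in peaks, or CPM per kb of peak where genes are compared with each other. In bulk libraries, fewer cells with an open site and less opening per cell cannot be told apart.

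In neurons, each alpha and gamma protein, and each beta protein from its own single-exon gene, is made from a promoter of its own, and a cell uses a few of these promoters at a time. The zinc-finger protein CTCF and cohesin loop a chosen promoter to distant enhancers, and promoters not chosen are held silent by DNA methylation and heterochromatin. The C-type isoforms at the 3' ends of the alpha cluster (PCDHAC1, PCDHAC2) and the gamma cluster (PCDHGC3, PCDHGC4, PCDHGC5) are used more evenly between neurons than the others. The proteins bind their own kind on the neighbouring cell, which lets a neuron tell its own branches from those of others. In tumours the clusters are known as a region that gains DNA methylation over long stretches.

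Most promoters of the clusters carry a short shared element that contains the letters CGCTG. RefSeq promoters on GRCh38.p14, running from 250 bases before to 50 bases after a gene's start, were found for 42 of the 49 members. CGCTG or its reverse complement CAGCG was in 38 of the 42 (90.5%), against 48% of 35116 promoters of the same length. On the strand of the gene it was in 37 of the 42 (88.1%), against 30.7% of all promoters. By cluster this was 7 of 10 alpha, 12 of 14 beta and 18 of 18 gamma promoters. The 30-base windows that follow, on the + strand, are from members that turn up in the results, with CGCTG in capitals.
PCDHA10, chr5:140855845-140855874: gccaccggatgtCGCTGtcgtccacaaaat
PCDHAC2, chr5:140966369-140966398: gcagtccgggttCGCTGtccgccacttcgg
PCDHB13, chr5:141213869-141213898: gacgcgtggtggCGCTGcaggataagaagg
PCDHB15, chr5:141245318-141245347: aacgcatggtggCGCTGcaggctaaggctt
PCDHGA1, chr5:141330407-141330436: gactgtgggcgcCGCTGttcactaatctgg
PCDHGA3, chr5:141343771-141343800: gcctcttagtgtCGCTGttgaccactcaag
PCDHGA6, chr5:141373839-141373868: gactctaagcgtCGCTGttgaccaacctgg
PCDHGA9, chr5:141402718-141402747: gactctgagcgcCGCTGttgatcaactcta
PCDHGB4, chr5:141387621-141387650: gactctgggcgcCGCTGttggccaaagtgg
PCDHGB5, chr5:141397867-141397896: gactctgggcgcCGCTGttggccaaagtgc
PCDHGC3, chr5:141475884-141475913: gactctgtgtgcCGCTGtcggccaatgaag
PCDHGC4, chr5:141484956-141484985: gagcccgggagcCGCTGtctgccaatcggg
Of the 37 members with the motif on the strand of the gene, the windows of 3 (PCDHAC1, PCDHGB3 and PCDHGB7) had a mean identity under 40% with the others. The remaining windows had mean identities of 45.9%, in PCDHAC2, to 63.8%. A match is a run of letters and not a measured binding site. CGCTG can also occur without the rest of the shared element, and which windows hold that element was not tested.

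The whole promoters of the 5 members that changed with the combination are shown to allow comparison of their base composition, in lower case with CGCTG and CAGCG in capitals.
PCDHAC1, chr5:140926049-140926348: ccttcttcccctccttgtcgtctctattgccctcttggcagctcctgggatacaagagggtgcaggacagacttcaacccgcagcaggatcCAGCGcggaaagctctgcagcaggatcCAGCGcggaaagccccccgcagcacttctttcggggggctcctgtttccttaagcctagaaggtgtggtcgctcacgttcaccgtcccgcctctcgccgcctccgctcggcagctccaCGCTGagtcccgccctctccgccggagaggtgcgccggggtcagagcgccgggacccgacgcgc
PCDHAC2, chr5:140966226-140966525: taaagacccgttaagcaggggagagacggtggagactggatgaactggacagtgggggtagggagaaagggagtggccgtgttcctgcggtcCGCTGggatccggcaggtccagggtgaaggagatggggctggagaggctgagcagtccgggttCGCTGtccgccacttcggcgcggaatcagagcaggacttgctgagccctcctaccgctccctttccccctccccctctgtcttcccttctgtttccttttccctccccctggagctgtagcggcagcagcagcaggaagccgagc
PCDHB1, chr5:141051124-141051423: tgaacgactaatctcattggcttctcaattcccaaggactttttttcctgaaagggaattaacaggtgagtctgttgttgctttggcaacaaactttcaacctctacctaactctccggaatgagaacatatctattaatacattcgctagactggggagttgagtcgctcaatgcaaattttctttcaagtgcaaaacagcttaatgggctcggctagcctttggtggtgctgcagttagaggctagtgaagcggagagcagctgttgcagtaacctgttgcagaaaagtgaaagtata
PCDHB15, chr5:141245145-141245444: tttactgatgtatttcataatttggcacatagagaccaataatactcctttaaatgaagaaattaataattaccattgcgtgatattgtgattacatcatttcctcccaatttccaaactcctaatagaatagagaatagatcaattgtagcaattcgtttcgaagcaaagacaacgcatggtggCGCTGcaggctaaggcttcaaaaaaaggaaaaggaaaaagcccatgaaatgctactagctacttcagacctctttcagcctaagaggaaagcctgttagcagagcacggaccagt
PCDHGA1, chr5:141330264-141330563: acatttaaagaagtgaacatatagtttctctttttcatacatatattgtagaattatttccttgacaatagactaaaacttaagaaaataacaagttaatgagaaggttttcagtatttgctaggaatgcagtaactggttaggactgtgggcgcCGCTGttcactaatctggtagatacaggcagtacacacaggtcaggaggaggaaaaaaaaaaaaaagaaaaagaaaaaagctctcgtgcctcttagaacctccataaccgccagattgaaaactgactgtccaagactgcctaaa
The promoters of PCDHAC1 and PCDHAC2 held 27 and 15 CpG dinucleotides. Those of PCDHB1, PCDHB15 and PCDHGA1 held 6, 6 and 4, and the PCDHB1 promoter had no match to the motif on either strand. The median was 7.5 CpG in each cluster, against 14 over all promoters. Ranges were 3 to 27 in the alpha, 5 to 12 in the beta and 2 to 23 in the gamma cluster. PCDHGC3 held 18 and PCDHGC4 held 23.

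Accessibility was restricted to a minority of the members in each line. The C-type genes PCDHAC1 and PCDHGC3 and the first beta gene PCDHB1 were open in most lines. For PCDHB1, 83.1% of the counts lay in a peak 9880 bp upstream of its start, so its call is not one of its promoter. A member was called open in a line when its level exceeded 2.60 CPM per kb, the mean over all peaks, a threshold chosen after the data were seen. Of 441 pairs of a member and a line, 95 were open in combination cells, against 92 in DMSO cells, with 87 open in both. By the mean of the 2 groups, 94 member pairs were open and 344 closed, with pairs that held a 0 left out. Over all genes tested, 125384 such pairs were open and 92212 closed. The share of all genes open in each group is not given here. The order of the groups turned at other thresholds, with 144 open in combination cells and 153 in DMSO cells at 0.5 times the threshold, and 46 in combination cells and 48 in DMSO cells at 2 times it. In DMSO cells 16 members were open in no line and 14 in 1 line, and no member was open in all 9. The 16 were PCDHA1, PCDHA2, PCDHA6, PCDHA7, PCDHA8, PCDHB4, PCDHB5, PCDHB7, PCDHB8, PCDHB12, PCDHB15, PCDHB16, PCDHGA2, PCDHGA4, PCDHGA11 and PCDHGB6. These calls use the sum over a member's peaks and can differ from those of its promoter peak. The PCDHA1 promoter peak alone, 546 bp wide, had 2.22 CPM in HCC1395 DMSO cells, which is above the threshold per kb. The gamma cluster had the fewest members open in no line, 4 of 20, against 5 of 12 alpha and 7 of 17 beta members. PCDHAC1 was open in every line but SUM-159PT, PCDHGC3 in every line but HCC1395, PCDHB1 in 7 lines, and PCDHAC2 and PCDHB14 in 6.

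**Figure D1:**
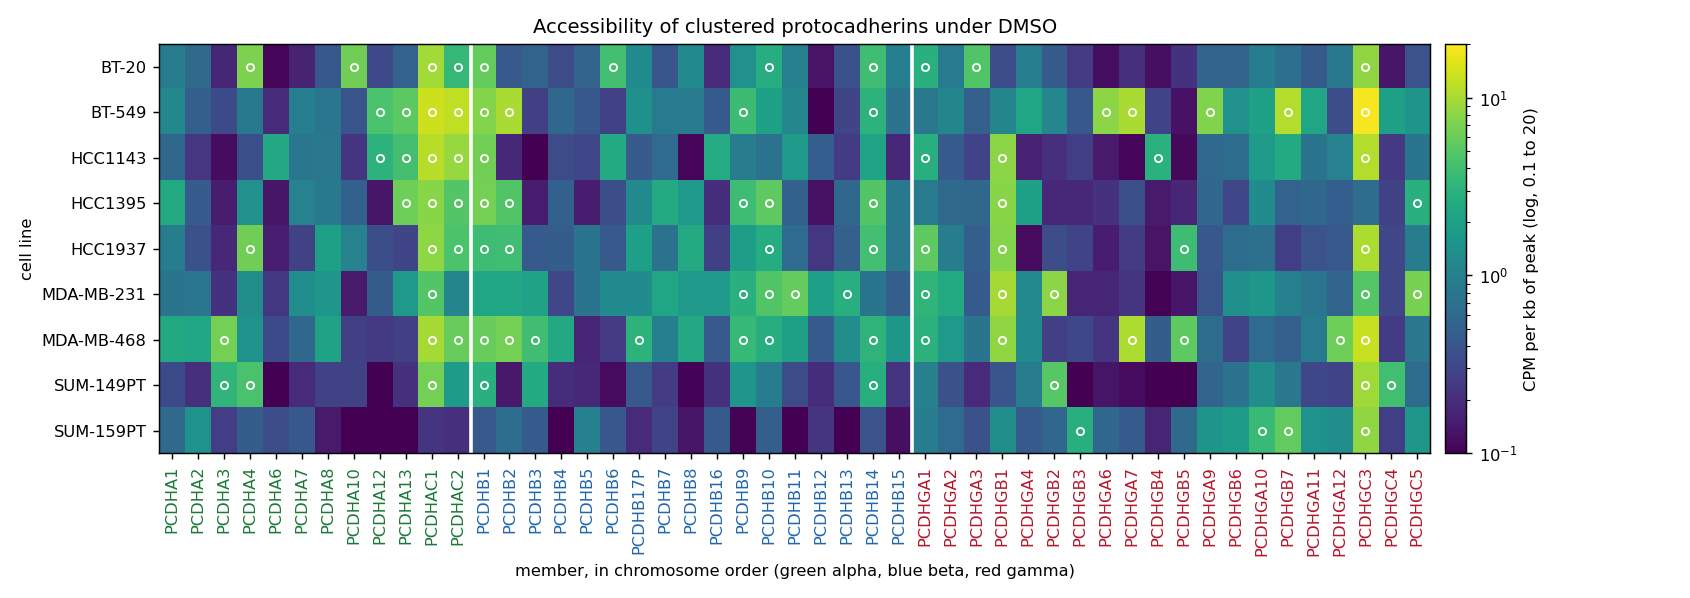
Level of each member (across, in chromosome order) in each line (down the page) in DMSO cells, as CPM per kb on a log colour scale; circles mark levels above 2.60 CPM per kb. The PCDHAC1, PCDHGC3 and PCDHB1 columns are marked in most lines, while SUM-159PT has 4 circles, all in the gamma cluster.

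PCDHGC3, which in mouse promotes dendrite branching, had the highest mean level of all members in DMSO cells. Its lowest, median and highest levels over lines were 0.194, 9.58 and 17.5 CPM per kb in combination cells, against 0.671, 9.35 and 18.7 CPM per kb in DMSO cells. HCC1395 was lowest and BT-549 highest in both groups. Without the third DMSO library of HCC1395, which stood apart, the lowest DMSO value was 0.346 CPM per kb, again in HCC1395. PCDHAC1, a C-type alpha isoform, ranged from 0.177 through a median of 10.5 to 14.7 CPM per kb in combination cells, against 0.220, 8.10 and 13.2 CPM per kb in DMSO cells. SUM-159PT was the line at the low end. PCDHAC2, a C-type isoform that in mouse serves the spacing of serotonergic axons, had 0.250, 6.24 and 14.0 CPM per kb in combination cells, against 0.204, 4.44 and 12.2 CPM per kb in DMSO cells, with SUM-159PT lowest and BT-549 highest. The other C-type genes were low in most lines. PCDHGC4, which in mouse is needed for the survival of inhibitory neurons, had 0.149, 0.202 and 4.16 CPM per kb in combination cells, against 0.139, 0.283 and 4.02 CPM per kb in DMSO cells. SUM-149PT was the one line in which it was open. PCDHGC5 had 0.523, 1.02 and 5.69 CPM per kb in combination cells, against 0.391, 0.940 and 6.70 CPM per kb in DMSO cells, with MDA-MB-231 highest.

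The beta genes have no constant exons, and PCDHB1 is the first of them. Its levels were 0.485, 5.56 and 9.24 CPM per kb in combination cells, against 0.442, 5.72 and 7.54 CPM per kb in DMSO cells. Most of this did not come from its promoter: 83.1% of its counts lay in a peak at chr5:141039621-141041494 (hg38), 9880 bp upstream of its start and annotated as intergenic. PCDHB2 had the second highest mean in the beta cluster, and its 3 levels were 0.0476, 2.88 and 9.83 CPM per kb in combination cells, against 0.143, 2.26 and 10.2 CPM per kb in DMSO cells, highest in BT-549. PCDHGB1, second in the gamma cluster, had 0.212, 7.05 and 8.63 CPM per kb in combination cells, against 0.353, 7.52 and 9.89 CPM per kb in DMSO cells. At the other end, PCDHA6 had mean levels over lines of 0.320 CPM per kb in combination cells and 0.449 in DMSO cells, and PCDHA7 had 0.586 in combination cells and 0.645 in DMSO cells. PCDHB12 had 0.457 in combination cells and 0.434 in DMSO cells, and PCDHB5 had 0.426 in combination cells and 0.484 in DMSO cells. In the gamma cluster PCDHGB4 averaged 0.484 CPM per kb in combination cells and 0.494 in DMSO cells, and PCDHGB3 0.422 in combination cells and 0.529 in DMSO cells.

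Each line had its own set of open variable exons, and the set stayed nearly the same under treatment. In BT-20, PCDHA10 was at 5.63 CPM per kb in combination cells and 6.28 in DMSO cells, and PCDHGA3 at 4.67 in combination cells and 4.73 in DMSO cells. In BT-549, PCDHGA6 was at 6.58 CPM per kb in combination cells and 7.89 in DMSO cells, and PCDHGA9 at 6.99 in combination cells and 7.38 in DMSO cells. All 4 of these genes were open in no other DMSO line. MDA-MB-231 was the highest line for PCDHB11, with 5.94 CPM per kb in combination cells and 5.68 in DMSO cells, and for PCDHB13, with 2.72 in combination cells and 2.75 in DMSO cells. In MDA-MB-468 PCDHA3 was at 6.53 CPM per kb in combination cells and 6.57 in DMSO cells, and PCDHGA12 at 4.77 in combination cells and 6.16 in DMSO cells. PCDHA13 reached 6.25 CPM per kb in combination cells and 6.15 in DMSO cells of HCC1395, against medians over lines of 0.389 in combination cells and 0.527 in DMSO cells. PCDHA13 was also open in BT-549 and HCC1143, and PCDHA3 also in SUM-149PT, in both groups. The number of open members per line ran from 3 in SUM-159PT to 18 in MDA-MB-468 in combination cells, and from 4 to 16 in the same lines in DMSO cells. SUM-159PT had no open alpha or beta member in DMSO cells.

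Few members crossed the threshold with treatment, and which direction had more depended on it: 8 pairs opened and 5 closed at the threshold used, 7 opened and 16 closed at 0.5 times it, and 4 opened and 6 closed at 2 times it. The share of pairs over all genes that crossed it is not given here, so no difference from other genes is meant. The 8 pairs open in combination cells alone were PCDHB8 in HCC1937, PCDHB1, PCDHB2 and PCDHGA2 in MDA-MB-231, PCDHA1, PCDHA8 and PCDHB8 in MDA-MB-468, and PCDHAC2 in SUM-149PT. Of the 2.58 CPM of PCDHA1 in MDA-MB-468 combination cells, 1.17 CPM lay in a peak 439 bp from the start of PCDHA2. The 5 pairs open in DMSO cells alone were PCDHGA1 in BT-20 and MDA-MB-468, PCDHGC5 in HCC1395, PCDHB10 in HCC1937 and PCDHGB3 in SUM-159PT. PCDHGC5 in HCC1395 was at 1.02 CPM per kb in combination cells and 2.89 in DMSO cells, and PCDHGB3 in SUM-159PT at 1.48 in combination cells and 2.77 in DMSO cells.

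Members resemble each other in sequence, so reads could in principle be shared between copies. The 300-base promoters had median pairwise identities of 52.3% in the alpha, 52.4% in the beta and 51.5% in the gamma cluster, against 50.6% between clusters. The closest pair was PCDHGB4 and PCDHGB5, with 80% identity and 62 shared words of 36 bases. Their accessibility was nevertheless separate. In HCC1143 PCDHGB4 had 2.95 CPM per kb in combination cells and 2.95 in DMSO cells, while PCDHGB5 had 0.250 in combination cells and 0.113 in DMSO cells. In MDA-MB-468 the order was reversed, with PCDHGB5 at 4.94 CPM per kb in combination cells and 5.40 in DMSO cells and PCDHGB4 at 0.287 in combination cells and 0.478 in DMSO cells. PCDHGB6 and PCDHGB7 were 73.9% identical with 3 shared words, and PCDHB8 and PCDHB13 71.3% with 20. How the authors treated reads that match several copies is not given in the sources used here, so small values of these pairs are uncertain.

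The third DMSO library of HCC1395 stood apart at some of the members that are closed in that line. In a split chosen after the values were seen, it was the highest of the 3 DMSO libraries at 6 of the 6 members that were closed in HCC1395 and open in BT-20 in DMSO cells, and at 9 of the 33 that were closed in both. PCDHGC3 was at 0.380 CPM in the summed combination libraries, against 0.848, 0.518 and 2.58 CPM in DMSO replicates 1, 2 and 3. PCDHA10 was at 0.148 CPM in combination cells, against 0.303, 0.287 and 1.35 CPM in the 3 DMSO replicates. Both genes are among the 6, and were open in BT-20, with 16.3 CPM for PCDHGC3 and 7.85 CPM for PCDHA10 in its DMSO cells. PCDHGC3 was open in 8 lines in DMSO cells and PCDHA10 in BT-20 alone. No line other than BT-20 was compared in this way, and why the library stood apart was not tested. PCDHGC5, which is open in HCC1395 but not in BT-20, was level over the 3 DMSO libraries, at 3.82, 3.80 and 3.87 CPM. The log2 ratio of PCDHGC3 in HCC1395 was -1.79 with the library and -0.84 without it, while that of PCDHGC5 was -1.50 both ways.

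Against DMSO, the combination raised accessibility at PCDHAC1, PCDHAC2 and PCDHB1 and lowered it at PCDHB15 and PCDHGA1, while the other 44 members passed no threshold. All 49 members passed the filter on low counts. Over 9 lines, with the line as block, 3 members rose and 2 fell at an adjusted p under 0.05 by edgeR's quasi-likelihood test, and 15 had an unadjusted p under 0.05. Among the 24292 genes tested, 10.4% rose and 15.8% fell, and 10011 had an unadjusted p under 0.05 by the same test. The members' shares of rises and of falls were thus below both backgrounds. The median log2 fold was -0.21 over members and -0.01 over all genes tested, with 9 members above 0 and 40 below. The medians by cluster were -0.20 in the alpha, -0.20 in the beta and -0.25 in the gamma cluster. DESeq2 called 3 rises and 2 falls. The split depended on the scaling, with 2 rises and 2 falls under size factor or total count scaling, and 1 rise and 4 falls under abundance-trended offsets, where PCDHA1 and PCDHGB1 fell as well.

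**Figure D2:**
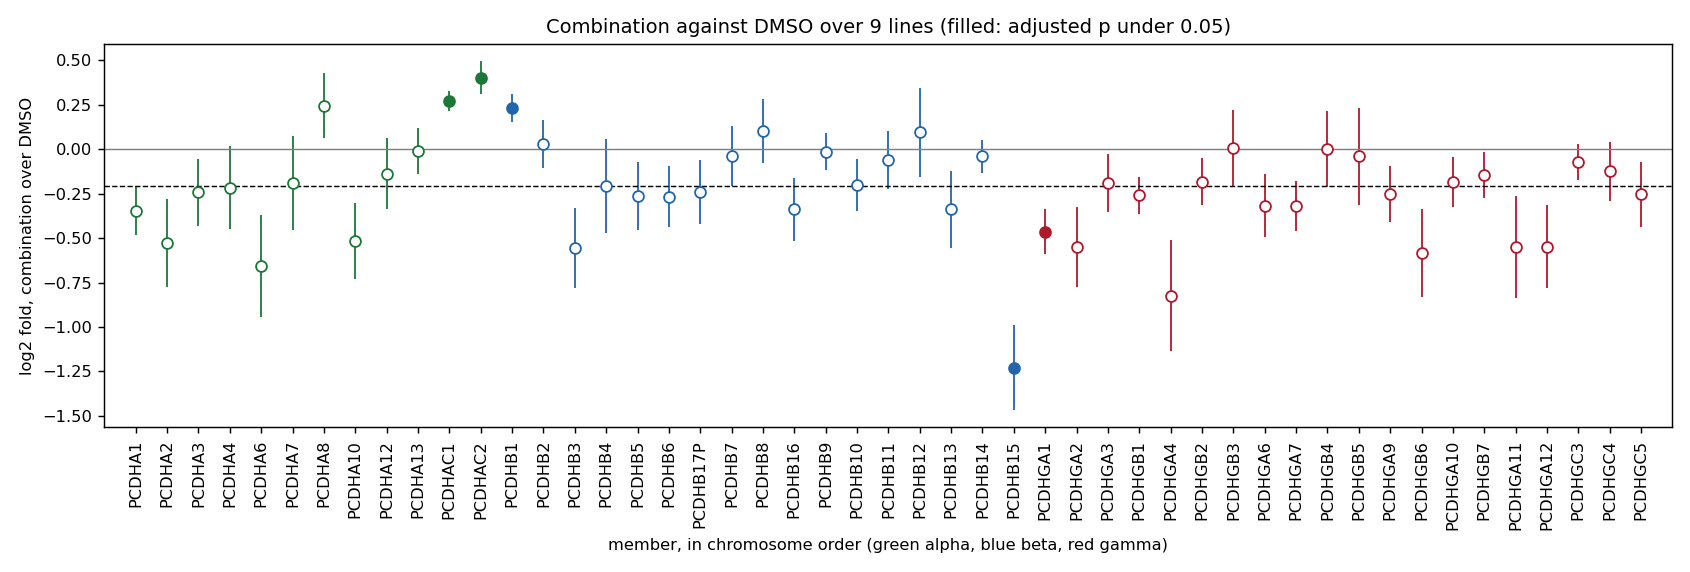
Log2 fold of combination over DMSO for each member in chromosome order, over 9 lines, with its standard error; filled points have an adjusted p under 0.05 and the dashed line is the member median of -0.21. The 2 filled points of the alpha cluster, PCDHAC1 and PCDHAC2, lie above 0, and most open points lie below it.

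PCDHAC2 had 0.339, 8.46 and 19.0 CPM (lowest, median and highest line) in combination cells, against 0.276, 6.01 and 16.5 CPM in DMSO cells. It was higher with the combination in 9 of 9 lines, by a log2 fold of 0.40 ± 0.09 (SE; adjusted p = 0.0117, edgeR). SUM-149PT had the largest ratio, at 4.76 CPM in combination cells and 2.54 CPM in DMSO cells. PCDHAC1 had 0.297, 17.6 and 24.6 CPM in combination cells, against 0.368, 13.6 and 22.1 CPM in DMSO cells. It rose by a log2 fold of 0.27 ± 0.06 (SE; adjusted p = 0.00870, edgeR) and was higher in 7 of 9 lines, all but HCC1143 and SUM-159PT. PCDHB1 had 1.59, 18.3 and 30.3 CPM in combination cells, against 1.45, 18.8 and 24.7 CPM in DMSO cells. It rose by 0.23 ± 0.08 (SE; adjusted p = 0.0483, edgeR) and was higher in 7 of 9 lines, though its median over lines was slightly lower with the combination. The PCDHB1 call was lost in 13 of 25 alternatives, among them without the third DMSO library of HCC1395 (adjusted p = 0.0505, edgeR), and that of PCDHAC2 with abundance-trended offsets (log2 fold 0.25, adjusted p = 0.0926). The ranges of the 2 groups overlapped for all 3 genes, because lines differed more than treatments.

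PCDHGA1, the first gamma A gene, had 1.29, 7.61 and 13.4 CPM in combination cells, against 2.75, 9.22 and 17.6 CPM in DMSO cells. It was lower with the combination in 9 of 9 lines, by a log2 fold of -0.46 ± 0.13 (SE; adjusted p = 0.0213, edgeR). SUM-149PT had the lowest ratio of the 9 lines, at 1.29 CPM in combination cells and 3.26 CPM in DMSO cells. With peaks limited to 1 kb of the start, which leaves the promoter peak, the call was lost (log2 fold -0.34, adjusted p = 0.122). PCDHB15, a single-exon beta gene, had 0.0212, 0.143 and 0.366 CPM in combination cells, against 0.0690, 0.411 and 0.905 CPM in DMSO cells. Its log2 fold was -1.23 ± 0.24 (SE; adjusted p = 0.00630, edgeR), lower in 8 of 9 lines. These are low values: in MDA-MB-468, its highest line, the 3 summed libraries held 19 counts in combination cells and 48 in DMSO cells. SUM-149PT went the other way, with 10 counts in combination cells and 7 in DMSO cells.

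**Figure D3:**
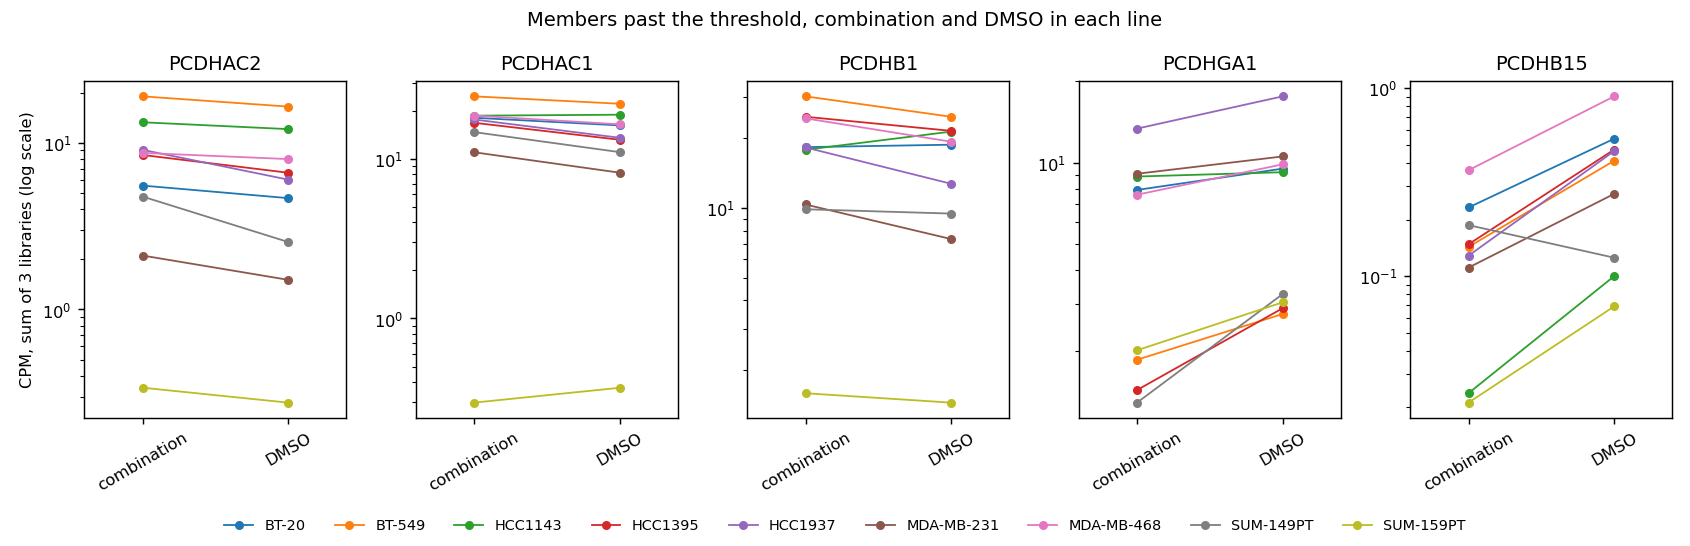
CPM (log axis, with its own range in each panel) of PCDHAC2, PCDHAC1, PCDHB1, PCDHGA1 and PCDHB15 in combination cells (left) and DMSO cells (right), with 1 joined pair of points per line (9 lines). The spread between lines exceeds the step between groups, and the PCDHB15 pairs lie below 1 CPM.

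Among the uncalled members, PCDHGA4 had a log2 fold of -0.82 ± 0.32 (SE; adjusted p = 0.0724, edgeR), PCDHA6 of -0.66 (adjusted p = 0.104) and PCDHGB6 of -0.59 (adjusted p = 0.0961). The remaining C-type genes gave -0.07 ± 0.10 for PCDHGC3 (adjusted p = 0.618), -0.12 ± 0.17 for PCDHGC4 (0.897) and -0.25 ± 0.18 for PCDHGC5 (0.317).

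Lower values were more frequent among closed pairs of a member and a line (71.8%) than among open ones (52.1%). Pairs of a member and a line were split by whether their mean level over both groups exceeded 2.60 CPM per kb. The 94 open pairs had a median log2 ratio of combination to DMSO of -0.02, with 45 higher and 49 lower. The 344 closed pairs had a median of -0.36, with 97 higher and 247 lower (71.8%). Over all genes the medians were -0.08 for 125384 open pairs and 0.04 for 92212 closed pairs, of which 46.1% were lower. The closed medians by line were -1.05 in HCC1395, -0.60 in SUM-159PT, -0.51 in HCC1937, -0.48 in SUM-149PT, -0.40 in BT-549, -0.39 in HCC1143, -0.32 in BT-20, 0.03 in MDA-MB-468 and 0.11 in MDA-MB-231. Leaving HCC1395 out gave -0.33 over 304 closed pairs. Within HCC1395, over 39 closed members, the median was -1.01 with the third DMSO library and -0.79 without it. Pairs of 1 line share libraries and are not replicates, so these medians describe the lines and were not tested. The levels are sums over a member's peaks and not those of its promoter. Some closed pairs held few counts, such as 1 in combination cells and 4 in DMSO cells for PCDHA8 in SUM-159PT. Closed pairs of members and of all genes were not matched by count.

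**Figure D4:**
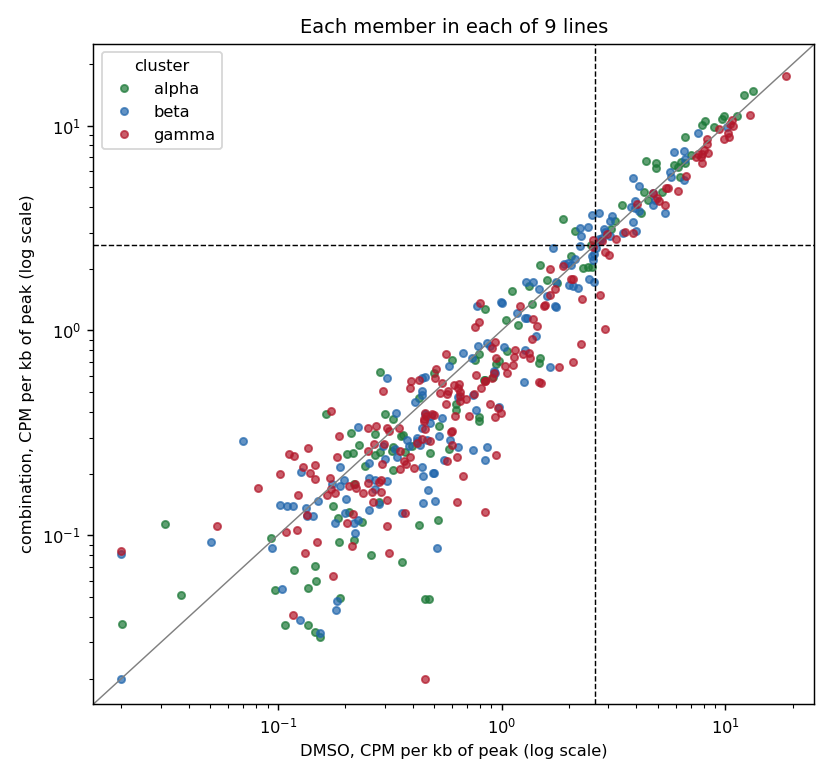
Level of each member in each line in combination cells against DMSO cells, in CPM per kb on log axes; dashed lines mark 2.60 CPM per kb and values under 0.02 are drawn at 0.02. Of 441 points 87 lie in the corner that is open in both groups and 8 and 5 in the corners open in combination cells alone and in DMSO cells alone.

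Summed over each cluster, the gamma cluster was lower with the combination in 9 of 9 lines. The log2 ratio ran from -0.03 in HCC1143 to -0.64 in HCC1395, where the sum was 13.5 CPM in combination cells and 21.1 CPM in DMSO cells. Without the third DMSO library of HCC1395 that ratio was -0.58. The sums were not scaled as in the fit. The gamma ratio and the median over all open genes were -0.25 and -0.24 in SUM-159PT, and -0.24 and -0.21 in MDA-MB-468. They were -0.16 and -0.11 in BT-549, -0.15 and -0.09 in MDA-MB-231, and -0.13 and -0.06 in SUM-149PT. In HCC1937 they were -0.21 and -0.04, in BT-20 -0.09 and 0.0015, in HCC1143 -0.03 and -0.05, and in HCC1395 -0.64 and 0.013. The difference was not tested. The alpha cluster was higher in 7 of 9 lines, up to 0.36 in SUM-149PT, where the sum was 30.8 CPM in combination cells and 24.0 CPM in DMSO cells. SUM-159PT, in which no alpha member was open, was the line with the lowest alpha ratio, at -0.95. The beta cluster was higher in 5 of 9 lines. Over all members the log2 ratio of the sums lay between -0.29 in SUM-159PT and 0.05 in MDA-MB-231. These sums are led by the open members, PCDHAC1 and PCDHAC2 in the alpha cluster.

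Single peaks passed the test at PCDHGA1 and PCDHB15, the members that fell, and at none of those that rose. Of the 125 member peaks 108 were tested among 736873 peaks of the series, of which 2.28% rose and 1.42% fell with the combination. No member peak rose and 3 fell, and 28 had an unadjusted p under 0.05 by edgeR's quasi-likelihood test. The share of all peaks at that unadjusted p is not given here. The strongest fall by adjusted p was at chr5:141328128-141328613 (hg38), 1901 bp upstream of PCDHGA1, with a median over lines of 0.712 CPM in combination cells and 1.05 CPM in DMSO cells. Its log2 fold was -0.89 ± 0.19 (SE; adjusted p = 0.0123, edgeR), lower in 8 of 9 lines. The PCDHGA1 promoter peak gave -0.43 ± 0.16 (adjusted p = 0.117) and the peak 3579 bp downstream, in the exon, -0.58 ± 0.17 (adjusted p = 0.0603). Both PCDHB15 peaks fell: the promoter peak at chr5:141245239-141245628 by -1.11 ± 0.32 (adjusted p = 0.0492) and the intergenic one at chr5:141250648-141250807, 5253 bp downstream, by -1.50 ± 0.38 (adjusted p = 0.0313).

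The peaks of the rising genes passed no threshold one by one. The single PCDHAC2 peak over its start gave 0.34 ± 0.11 (adjusted p = 0.0697, edgeR) and that of PCDHAC1 0.21 ± 0.08 (adjusted p = 0.157). The gene sums gave 0.40 ± 0.09 for PCDHAC2 and 0.27 ± 0.06 for PCDHAC1 in a fit of their own, with its own scaling and spread, and why the peaks missed the threshold was not tested. At PCDHB1 the promoter peak at chr5:141050632-141052037 had a median of 3.44 CPM in combination cells and 1.83 CPM in DMSO cells, with a log2 fold of 0.39 ± 0.14 (adjusted p = 0.121). The larger upstream peak that holds most of the gene's counts gave 0.10 ± 0.09 (adjusted p = 0.604). Further from the starts, 2 of the peaks were as strong as the open promoters. One, at chr5:141003834-141004759, lies 37358 bp past the start of PCDHAC2 in an intron of the alpha genes, with medians of 14.6 CPM in combination cells and 14.1 CPM in DMSO cells. The other, at chr5:141507357-141509867, lies 18276 bp past the start of PCDHGC5, with medians of 11.3 CPM in combination cells and 11.6 CPM in DMSO cells. The second was lower in 9 of 9 lines without passing the threshold (log2 fold -0.21 ± 0.08, adjusted p = 0.122).

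In the 4 lines with every treatment, PCDHAC1, PCDHAC2 and PCDHB1 rose with tazemetostat, and no member was called with ipatasertib. All 3 comparisons with DMSO share the DMSO libraries. Of the 49 members 47 passed the filter on low counts there, all but PCDHA6 and PCDHGA4. With tazemetostat 3 members rose and 0 fell, against 9.69% and 18.1% of 23999 genes. An unadjusted p under 0.05 was reached by 4 members and by 10310 of the genes. PCDHAC2 rose by a log2 fold of 0.55 ± 0.16 (SE; adjusted p = 0.0260, edgeR; higher in 3 of 4 lines), PCDHB1 by 0.43 ± 0.11 (adjusted p = 0.0199; 4 of 4) and PCDHAC1 by 0.30 ± 0.10 (adjusted p = 0.0453; 4 of 4). The median over members was -0.01, against -0.02 over all genes. With ipatasertib no gene of the series was called (0.0% in either direction), 493 genes had an unadjusted p under 0.05 and no member did, and DESeq2 called none. The largest ipatasertib values among members were -0.61 for PCDHB15, -0.45 for PCDHA13, 0.35 for PCDHGB2 and 0.30 for PCDHB2, none past the test. With the combination in these 4 lines 5 members and 9014 of the 23999 genes had an unadjusted p under 0.05. At an adjusted p under 0.05, 2 members rose and 1 fell, against 7.2% and 12.4% of genes. They were PCDHAC2 (0.53 ± 0.16, adjusted p = 0.0359), PCDHAC1 (0.35 ± 0.10, adjusted p = 0.0343) and PCDHGA1 (-0.51 ± 0.16, adjusted p = 0.0467).

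PCDHAC1 had 10.02 CPM with tazemetostat, 8.53 with ipatasertib, 11.003 with the combination and 8.19 with DMSO in MDA-MB-231. In SUM-149PT it had 13.8, 11.2, 14.7 and 11.02 CPM in the same order of groups, and in MDA-MB-468 17.2, 17.6, 18.7 and 16.5 CPM. In SUM-159PT it was closed in every group, at 0.399, 0.243, 0.297 and 0.368 CPM. PCDHAC2 was at 4.44 CPM with tazemetostat, 3.24 with ipatasertib, 4.76 with the combination and 2.54 with DMSO in SUM-149PT. In MDA-MB-231 the 4 values were 2.36, 1.43, 2.11 and 1.51 CPM, in MDA-MB-468 7.66, 7.79, 8.70 and 7.99 CPM, and in SUM-159PT 0.399, 0.265, 0.339 and 0.276 CPM. MDA-MB-468 was the one line in which tazemetostat alone did not raise the PCDHAC2 value above DMSO.

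PCDHB1 was higher with tazemetostat than with DMSO in 4 of 4 lines. It had 11.6 CPM with tazemetostat, 6.58 with ipatasertib, 10.4 with the combination and 7.35 with DMSO in MDA-MB-231, and 23.9, 17.8, 24.4 and 19.3 CPM in MDA-MB-468. The values were 10.96, 8.41, 9.88 and 9.46 CPM in SUM-149PT and 1.53, 1.72, 1.59 and 1.45 CPM in SUM-159PT. PCDHGA1 had 1.82 CPM with tazemetostat, 2.99 with ipatasertib, 1.29 with the combination and 3.26 with DMSO in SUM-149PT, and 2.06, 3.16, 2.01 and 3.04 CPM in SUM-159PT. It had 8.90, 10.03, 9.10 and 10.5 CPM in MDA-MB-231 and 8.79, 9.21, 7.61 and 9.86 CPM in MDA-MB-468. For PCDHGA1 both groups with tazemetostat lay below DMSO in all 4 lines.

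The calls in 4 lines rested on few samples. Of 18 alternatives, the tazemetostat call was lost in 9 for PCDHAC1, in 5 for PCDHAC2 and in 4 for PCDHB1, and the combination call in 6 for PCDHAC1, in 5 for PCDHAC2 and in 7 for PCDHGA1. With total count scaling the tazemetostat calls were 2 rises and 3 falls (PCDHGA1, PCDHGB1 and PCDHGC3), and with abundance-trended offsets 0 rises and 4 falls (PCDHGA1, PCDHGB1, PCDHGA7 and PCDHGA12). The combination calls with those offsets were 0 rises and 2 falls (PCDHGA1 and PCDHGB1). Without MDA-MB-231 no member was called with either treatment. Without SUM-149PT 1 was called with tazemetostat and 0 with the combination, and without MDA-MB-468 or SUM-159PT 1 with each. Set directly against tazemetostat, the combination changed no gene (0.0% in either direction; 893 genes and 0 members at an unadjusted p under 0.05), whereas DESeq2 called 0 rises and 2 falls among all genes and none among members. The non-additive part of the combination was likewise called for no gene (0.0%; 52 genes and 0 members at an unadjusted p under 0.05), and DESeq2 called none.

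**Figure D5:**
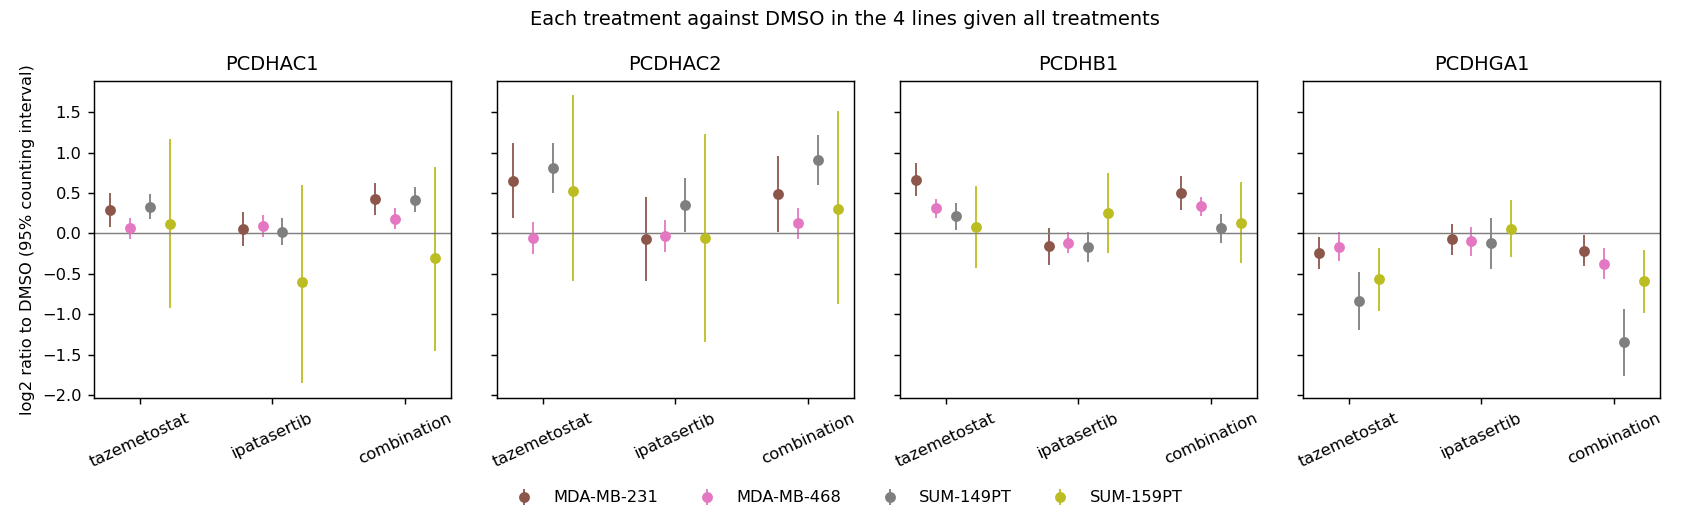
Log2 ratio to DMSO of PCDHAC1, PCDHAC2, PCDHB1 and PCDHGA1 in the 4 lines with every treatment, for tazemetostat, ipatasertib and the combination, with 95% intervals for counting error. In SUM-149PT PCDHAC2 lies well above 0 and PCDHGA1 well below it with tazemetostat and the combination, and the intervals of SUM-159PT are wide where counts are low.

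Within single lines, where there is no replication, members were counted when they differed by 1.5-fold or more from DMSO at a mean of at least 1 CPM. The lowest ratios with the combination were those of PCDHGC5 in HCC1395 and PCDHGA1 in SUM-149PT, and the highest was that of PCDHAC2 in SUM-149PT. PCDHGC5 in HCC1395 was at 1.35 CPM in combination cells and 3.83 CPM in DMSO cells, a ratio of 0.353 (95% exact binomial interval 0.262 to 0.470, counting error only). In the same line PCDHA4 had a ratio of 0.472 (0.322 to 0.681) and PCDHGA1 of 0.497 (0.367 to 0.667). Without the third DMSO library the log2 ratio was -0.79 in place of -1.08 for PCDHA4 and -0.86 in place of -1.01 for PCDHGA1. These were 3 of 15 members past the limit, against 3.91% of genes. In SUM-149PT the PCDHAC2 ratio was 1.87 with the combination (1.52 to 2.32) and 1.75 with tazemetostat (1.42 to 2.16). It was the 1 of 12 members higher in each comparison, against 4.5% of genes with the combination and 4.67% with tazemetostat. The PCDHGA1 ratio there was 0.396 with the combination (0.295 to 0.525) and 0.560 with tazemetostat (0.435 to 0.717), the 1 of 12 members lower, against 1.43% and 0.346% of genes.

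SUM-159PT had 3 of 11 members lower with the combination, against 5.36% of genes, and 4 of 10 with tazemetostat, against 5.09%. They were PCDHGA1, PCDHGB1 and PCDHGB3 with the combination, at ratios of 0.664, 0.659 and 0.537, and PCDHB5, PCDHGB1, PCDHGB3 and PCDHGA10 with tazemetostat, at 0.566, 0.536, 0.577 and 0.551. All but PCDHB5 are gamma members. In SUM-159PT 0 of 11 members were higher with the combination, against 14.7% of genes, and 0 of 10 with tazemetostat, against 14.4%. MDA-MB-231 had 3 of 25 members higher with tazemetostat, against 4.75% of genes: PCDHB5 at a ratio of 1.76, PCDHB1 at 1.58 and PCDHAC2 at 1.57. With the combination PCDHB5 alone passed there, at 1.70, the 1 of 26 members against 4.71% of genes. PCDHAC2 in HCC1937 reached 1.51 (1.31 to 1.74), the 1 of 17 members against 3.18% of genes, and PCDHB16 in HCC1143 was at 0.664 (0.483 to 0.907), the 1 of 18 against 3.15%. PCDHB2 in SUM-159PT was the one member past the limit with ipatasertib, at 1.53 (1.03 to 2.28), the 1 of 12 against 0.149% of genes. No member passed the limit in BT-20, BT-549 or MDA-MB-468. With the combination 13, 21 and 23 members were compared there. Of all genes 2.67% were higher and 1.98% lower in BT-20, and 6.7% and 1.04% in BT-549. In MDA-MB-468 the shares of genes were 14.7% and 4.46% with the combination, 15.4% and 2.6% with tazemetostat, and 0.307% and 0.906% with ipatasertib.

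Genes that share the locus or act on it were read from the same fit, in lists chosen with earlier results of these data known. Their counts stand beside 10.4% of all genes that rose and 15.8% that fell with the combination over 9 lines. Of 14 tested neighbours within and beside the clusters 0 rose and 6 fell with the combination, with a median log2 fold of -0.14. They included DND1, an RNA-binding protein of germ cells (-0.71), HARS2, the mitochondrial histidyl-tRNA synthetase (-0.17), and HDAC3, a histone deacetylase (-0.11). Of 24 genes for the architecture and silencing of the clusters 1 rose and 6 fell (median -0.06). CTCF fell, with a log2 fold of -0.29 ± 0.09 (SE; adjusted p = 0.0356, edgeR), as did the cohesin subunit SMC1A, with -0.95 ± 0.18 (adjusted p = 0.00638). The others that fell were MAU2, which loads cohesin, WAPL, which releases it, PDS5A, which regulates it, and TET3, which oxidises methylated cytosine. Of 19 partners and proteases of the proteins 2 rose and 5 fell (median -0.03), among them CYFIP2, a subunit of the WAVE complex that protocadherins recruit (0.53 ± 0.14), and the GTPase RAC1, which acts on the same complex (-0.16). These are accessibility changes near the genes and not protein levels.

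Of 11 protocadherin genes outside the clusters, all tested, 4 rose and 0 fell with the combination, against 10.4% and 15.8% of all genes, with a median log2 fold of 0.28. Whether they differed from the clustered members was not tested. PCDH18 rose by 0.64 ± 0.19 (SE; adjusted p = 0.0300, edgeR), PCDH11X by 0.58, PCDH19 by 0.46 and PCDH9 by 0.17. With tazemetostat, where 9.69% of all genes rose and 18.1% fell, 1 of the 11 rose, and with ipatasertib none of the lists had a call. The lists of neighbours, architecture genes and partners had 6, 6 and 5 falls with tazemetostat and no rise.

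Accessibility at marker genes was read beside these results. Markers of neurons, the cells that use clustered protocadherins most, rose in 3 of 8 tested with the combination (NEFL by 1.05 ± 0.25, SNAP25 by 0.25 and MAP2 by 0.24) and in 4 of 7 with tazemetostat, with none lower, against 10.4% of all genes that rose with the combination and 9.69% with tazemetostat. Their summed level ranged over lines from 50.8 to 182 CPM in combination cells and from 47.6 to 172 CPM in DMSO cells. Epithelial markers fell in 2 of 10 with the combination (EPCAM and CLDN4), against 15.8% of all genes, with sums of 118.5 to 554 CPM in combination cells and 102.8 to 683 CPM in DMSO cells. Mesenchymal markers were called in 0 of 7 (sums 109 to 339 CPM in combination cells, 91.4 to 372 CPM in DMSO cells). Immune markers fell in 2 of 3 measured, endothelial markers rose in 1 of 4, and of the 3 receptor genes PGR rose (0.77) and ERBB2 fell (-0.22). The part of cell state in the protocadherin values was not tested.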

How the data were processed

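Deposited values were raw counts of reads per peak for 78 libraries over 1 set of 861439 peaks, with hg38 positions. The authors used MACS2 for peak calling and featureCounts for counting, per the submitters' processing notes. Not given in the sources used here are versions, the aligner, duplicate removal and the treatment of multiply mapped reads. Per the file headers, each peak is assigned to 1 gene with a signed distance score in bp to its start, and the tool is not stated; 61 peaks without a symbol were left out of gene sums but kept in library totals. The labels list 84 samples, and the 6 of HCC1806 were not analysed here.

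Counts of peaks within 10 kb of a start were summed per gene, and the 3 libraries of a line and treatment to 1 sample. All genes were tested with edgeR 4.0.16 (R 4.3.3; quasi-likelihood, TMM scaling, minimum count 10, line as block, Benjamini-Hochberg adjustment over all features, threshold 0.05), and the test was checked on simulated data. P-values measure the spread between these samples. A standard error is the log2 fold divided by the root of the test's F. For some low or uneven genes edgeR bounds the p from below, so that p can exceed what fold and standard error imply. Intervals (exact, 95%) cover counting error only. Alternatives were other scalings, filters, windows (1 kb and 50 kb) and gene assignments, DESeq2 1.42.0, single libraries, and libraries or lines left out.

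The members and gene lists were chosen with earlier results of these data known. Named genes were the C-type isoforms, the 2 highest and 2 lowest members of each cluster in DMSO cells, those past the test (or the largest changes where few passed), the extremes within lines and near-identical pairs. Other names in the line-specific and list paragraphs were chosen after their values were seen. The gene that rose in the list for the architecture and silencing of the clusters is counted there and not reported by name here.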

Additional observations from a re-analysis of the deposited data

Results flagged for a closer look

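Over the 9 lines, a member was listed when its highest or lowest line stood apart from the other 8 by Dixon's 95% criterion. For normally distributed values about 1 in 20 groups would have such a line. Levels of members open in few lines are skewed, and the share over all genes is not given here, so no excess over chance is meant. Of 54 groups of values tested, which were DMSO levels and log2 ratios of combination to DMSO, 18 had such a line. In 17 of these the level in DMSO cells of 1 line was far above the next. MDA-MB-468 stood apart for PCDHA3 (6.57 CPM per kb, next line 3.21), PCDHB4 (2.45, next 0.581) and PCDHGA12 (6.16, next 1.34). MDA-MB-231 stood apart for PCDHB11 (5.68 CPM per kb, next 2.05), PCDHB12 (1.98, next 0.483), PCDHB13 (2.75, next 1.37) and PCDHGC5 (6.70, next 2.89). BT-549 stood apart for PCDHGA6 (7.89 CPM per kb, next 0.601), PCDHGA9 (7.38, next 1.56) and PCDHGB7 (10.8, next 5.57). BT-20 was the high line for PCDHA10 (6.28 CPM per kb, next 1.05) and PCDHGA3 (4.73, next 0.769), and HCC1143 for PCDHA6 (2.43, next 0.360) and PCDHGB4 (2.95, next 0.478). SUM-159PT was the high line for PCDHGB3 (2.77 CPM per kb, next 0.428) and PCDHGA10 (3.54, next 2.08), and SUM-149PT for PCDHGC4 (4.02, next 2.03). The last was the log2 ratio of combination to DMSO at PCDHB15, which was 0.576 in SUM-149PT and at most -1.22 in the other lines.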

How the results depend on the processing

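No called member changed direction under any alternative run. Over 9 lines the combination called 5 members, 4 or 5 when a replicate, a line or the third DMSO library of HCC1395 was left out, and 8 (3 rose, 5 fell) in a fit over all treatments; the other scalings, filters, windows and gene assignments gave 4 to 6. The member median stayed between -0.28 and -0.14. In 4 lines, tazemetostat called 3 members, 0 to 2 with a replicate or line left out, and 5 (2 rose, 3 fell) with total count scaling, and the combination called 3, 0 to 4 with a replicate or line left out. Member medians near 0 moved: for ipatasertib -0.057, 0.0403 with abundance-trended offsets and between -0.0786 and 0.0325 with a replicate or line left out, for combination against tazemetostat -0.078, 0.0442 with those offsets and between -0.0815 and -0.0361, and for the non-additive response -0.049 and between -0.0851 and 0.0195. The causes were not tested. Of the member peaks 3 were called, 1 or 2 without a replicate, and 1 rose and 2 fell with total count scaling or a minimum count of 30. The 92 open pairs in DMSO cells became 153 at 0.5 times the threshold (1.30 CPM per kb) and 48 at 2 times it (5.21 CPM per kb), and 93 to 99 without a replicate. The nearest RefSeq start and the open thresholds were chosen as alternatives after seeing the data. Depth limits the closed members: PCDHB15 had under 1 CPM in every line.

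The replicate numbers did not pair the libraries. Over 27 same-number pairs the correlation of deviations ran from -0.08 to 0.10 with a median of -0.0015, and 1 pair was over 0.1. With single libraries and the replicate block, 12 members (3 rose, 9 fell) were called for the combination over 9 lines, 7 (4 rose, 3 fell) for tazemetostat and 6 (4 rose, 2 fell) for the combination in 4 lines. Single libraries without the block gave 13 (3 rose, 10 fell), 7 (4 rose, 3 fell) and 8 (6 rose, 2 fell), and member medians of 0.000393 for ipatasertib and -0.0189 for combination against tazemetostat. These counts treat libraries that agree within sampling noise as separate samples.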
